A study of Mus musculus with 4 samples.

Results

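Genes of the mast cell granule and of mast cell identity were followed across the human cells of MDA-MB-231 tumors grown in humanized mice. The 10 genes, of 36601 in the deposited tables, were taken by symbol: the tryptases TPSAB1 (ENSG00000172236) and TPSB2 (ENSG00000197253), the carboxypeptidase CPA3 (ENSG00000163751), cathepsin G (CTSG, ENSG00000100448), histidine decarboxylase (HDC, ENSG00000140287), the IgE receptor beta chain MS4A2 (ENSG00000149534), the receptors KIT (ENSG00000157404) and IL5RA (ENSG00000091181), the transcription factor GATA2 (ENSG00000179348) and the hematopoietic prostaglandin D synthase HPGDS (ENSG00000163106). Each symbol matched 1 row in both tables.

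Mast cells arise from hematopoietic progenitors and mature in tissues, where stem cell factor acts on KIT. They store histamine and proteases bound to serglycin in their granules and release them when antigen cross-links IgE on the high-affinity receptor. Tryptase and carboxypeptidase A3 are their most typical proteases, whereas cathepsin G is shared with neutrophils, GATA2 with basophils and progenitors, IL5RA with eosinophils and basophils, and HPGDS with macrophages, dendritic cells and type 2 lymphocytes.

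All mice were of the MISTRG strain, which carries human genes for M-CSF, GM-CSF and IL-3, and each was irradiated as a pup and engrafted with human CD34+ hematopoietic stem cells. All received MDA-MB-231 cells, a human breast carcinoma line, in the mammary fat pad. The 7 untreated mice were compared with 7 mice given the drug maraviroc at 300 mg/l in the drinking water from day 21 for 10 days, and tumors were taken on day 31. Live human CD45+ cells were sorted and loaded in 2 droplet reactions of 3' RNA-seq, after hashtag antibodies had marked the cells of each mouse. Of the untreated mice, 4 were loaded in reaction 1 and 3 in reaction 2, with 3 and 4 of the maraviroc-treated mice. The treatment of a mouse was read from the name of its hashtag. Mouse cells and the factors of the host were not measured here.

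Barcodes were used if they had more than 600 genes, no more than 6000, and a mitochondrial share under the limit of the study, which left 27645 in reaction 1 (median 2752 UMIs) and 10161 in reaction 2 (median 10740 UMIs). Hashtag doublets were 36.8% of the former and 19.3% of the latter, and 136 barcode sequences occurred in both reactions, 5 of them gated as mast cells in one reaction and none in both. Classes were set by UMIs of marker genes, none of which was among the 10. A barcode was mast-gated if it had at least 5 UMIs from at least 4 of 17 mast cell markers, such as the vesicular amine transporter SLC18A2, the chymase CMA1 and the leukotriene synthase LTC4S. The other classes needed 3 UMIs from 2 markers, and myeloid and lymphoid barcodes also needed 3 times the UMIs of the opposite list. This gave 312 mast-gated barcodes in reaction 1 (1.13%) and 93 in reaction 2 (0.915%), beside 136 and 163 plasmacytoid dendritic, 11621 and 5490 other myeloid, 4837 and 3613 lymphoid, and 222 and 78 tumor barcodes without PTPRC. The tumor barcodes had passed a CD45+ sort. The remaining 10517 and 724 barcodes met no gate. The 17 mast cell markers define the gate, so their presence in mast-gated barcodes is no evidence of identity. They summed to 5565 and 12030 CPM there, and to 57.4 and 44.9 CPM in other myeloid barcodes, where 17 and 14 of them were detected. In plasmacytoid dendritic barcodes they summed to 526.2 and 778.7 CPM. The sums were 115.8 and 154.9 CPM in lymphoid and 61.2 and 65.6 CPM in tumor barcodes. In mast-gated barcodes, 4 neutrophil granule genes (ELANE, PRTN3, AZU1 and MPO) were at 0. That allows up to 2.39 and 3.53 CPM for each gene at 3 counts. Of 5 neutrophil markers, ELANE and MPO among them, 2 and 1 were detected in these barcodes, with a sum of 22.29 and 22.34 CPM. Of 7 basophil and eosinophil markers, 5 were detected there, with a sum of 292.9 and 859.6 CPM, of which PRG2 gave 258.7 and 515 CPM.

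Every one of the 10 genes was highest in mast-gated barcodes in both reactions. Levels are the UMIs of a gene scaled to 1000000 UMIs of its class (CPM), with exact Poisson 95% intervals that cover counting error only. TPSAB1 stood at 3212 CPM (3113 to 3312) in the mast-gated barcodes of reaction 1 and at 3969 CPM (3836 to 4105) in those of reaction 2. Reads of TPSAB1 and TPSB2 are hard to assign because the genes are near-identical copies, so the split between them is uncertain. TPSB2 was counted at 933.7 and 1136 CPM. CPA3, which removes C-terminal residues from peptides, was at 2383 CPM (2299 to 2470) and 3920 CPM (3788 to 4056). CTSG, a chymotrypsin-like serine protease, was at 3377 CPM (3276 to 3480) and 3529 CPM (3404 to 3657). These proteases were found in nearly every mast-gated barcode: TPSAB1 had a UMI in 93.3% and 90.3%, CPA3 in 94.2% and 92.5%, and CTSG in 92.3% and 89.2%.

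The genes of histamine synthesis, IgE binding and growth factor sensing were also highest in the mast-gated barcodes. HDC, which makes histamine from histidine, was at 259.5 CPM (232.1 to 289.2) in reaction 1 and 686.7 CPM (632.1 to 744.7) in reaction 2. MS4A2 was at 386.8 and 797.2 CPM, KIT at 355 and 673.8 CPM, and GATA2 at 236.4 and 451.5 CPM. IL5RA, the alpha chain of the interleukin 5 receptor, was sparse, at 28.7 CPM (20.1 to 39.7) and 63.5 CPM (47.7 to 82.8), from 36 and 54 UMIs. HPGDS was at 507 CPM (468.4 to 548) and 948.9 CPM (884.6 to 1017).

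Detection of the sparser genes differed between the reactions. HDC had a UMI in 49.4% of the mast-gated barcodes of reaction 1 and 90.3% of those of reaction 2, KIT in 58.0% and 87.1%, GATA2 in 45.5% and 83.9%, and IL5RA in 8.65% and 34.4%. Thinned to 2000 UMIs per barcode, which left out 86 and 5 shallower mast-gated barcodes, the shares were 32.7% and 70.5% for HDC, 44.7% and 68.2% for KIT, 31.4% and 52.3% for GATA2, 5.75% and 15.9% for IL5RA, and 86.3% and 88.6% for TPSAB1. The reactions thus differed at equal depth in HDC, KIT and GATA2 and were close in TPSAB1. With 1 library per reaction there is no test of this difference, and the share of hashtag doublets among mast-gated barcodes also differed, at 55.8% and 33.3%.

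**Figure D1:**
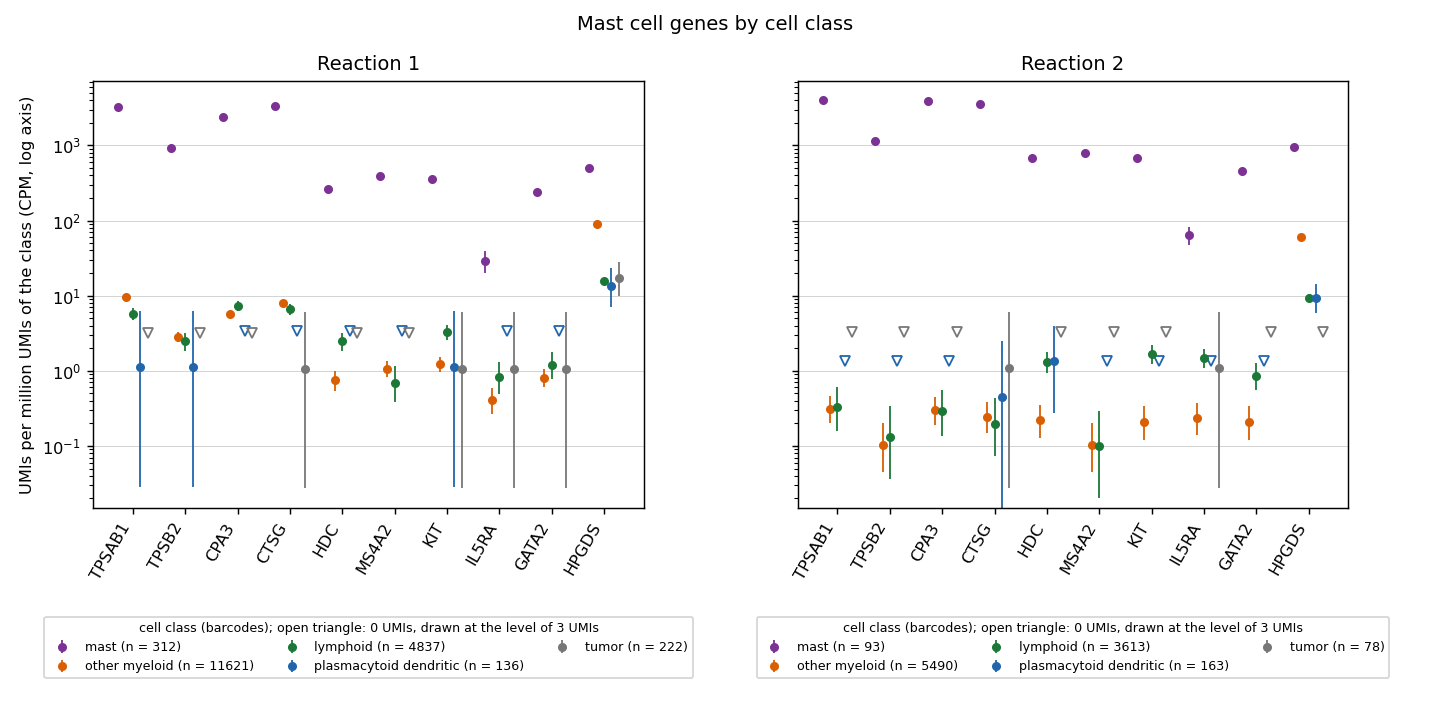
Level in CPM (log axis) of each gene in 5 cell classes of both reactions, with exact Poisson 95% intervals for counting error. Open triangles mark 0 UMIs and are drawn at the level of 3 UMIs. Mast-gated barcodes are highest for all 10 genes, IL5RA is lowest among them at 28.7 and 63.5 CPM, and HPGDS alone is well above 10 CPM in other myeloid barcodes of both reactions.

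Most UMIs of the proteases lay in the mast-gated barcodes, although these were about 1% of the total. In reaction 2 they held 98.9% of TPSAB1, 98.9% of CTSG and 98.1% of MS4A2 UMIs. In reaction 1 they held 76.3%, 77.4% and 75.4%. The share was lower for KIT (67.1% and 86.6%), HDC (68.1% and 89.6%) and GATA2 (73.2% and 87.3%), and lowest for IL5RA (36.4% and 42.9%) and HPGDS (7.44% and 13.3%). For HPGDS, other myeloid barcodes held 64.6% and 77.1% of the UMIs.

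Barcodes outside the mast gate carried far more protease UMIs in reaction 1 than in reaction 2. In lymphoid barcodes, which should lack tryptase, TPSAB1 was at 5.71 CPM (4.75 to 6.81) in reaction 1 and 0.329 CPM (0.158 to 0.605) in reaction 2. CTSG was at 6.64 and 0.197 CPM there, and CPA3 at 7.33 and 0.296 CPM. The ratio of reaction 1 to reaction 2 was 17.4 for TPSAB1, 24.8 for CPA3 and 33.6 for CTSG, against 1.94 for KIT, 1.87 for HDC, 1.41 for GATA2 and 0.565 for IL5RA. The reaction 2 levels of TPSAB1, CPA3 and CTSG rest on 10, 9 and 6 UMIs, so these ratios are imprecise and their order is not resolved. The tumor barcodes held 0 tryptase UMIs in both reactions, which allows up to 3.22 and 3.28 CPM for each gene at 3 counts. Plasmacytoid dendritic barcodes held 1 TPSAB1 and 1 TPSB2 UMI in reaction 1 and none in reaction 2. Barcodes at or under 600 genes carried both tryptases at 58.2 CPM (41.9 to 78.7) in reaction 1, from 42 UMIs in 4 barcodes, and at 2.13 CPM (0.692 to 4.98) in reaction 2. No class gate was applied to these shallow barcodes, so mast cells among them were not removed.

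In reaction 1 the tryptase outside the gate was concentrated in few barcodes. Of the barcodes outside the gate, 177 had 1 tryptase UMI, 57 had 2, 109 had 3 or 4, 93 had 5 to 9 and 27 had 10 or more. The 229 barcodes with 3 or more held 82.5% of these UMIs, and 65.9% of them were hashtag doublets, against 36.3% of the 26870 barcodes with no tryptase UMI. In reaction 2, 49 barcodes had 1 tryptase UMI and none had more. In other myeloid barcodes of reaction 1 most of the other genes stood beside tryptase in proportions near those of mast-gated barcodes. For each 100 TPSAB1 UMIs they had 58.9 CPA3, 83.5 CTSG, 12.9 KIT and 8.49 GATA2 UMIs, where mast-gated barcodes had 74.2, 105, 11.1 and 7.36. IL5RA, with 4.24 against 0.892, and HPGDS, with 939 against 15.8, were above that proportion. Lymphoid barcodes of reaction 1 were near it for CTSG, with 116.3 against 105, and for MS4A2, with 12.2 against 12.04 from 15 UMIs. They were above it for the other genes, among them CPA3 with 128, KIT with 56.9, HDC with 43.1 and GATA2 with 21.1 UMIs. Mast-gated barcodes had 8.08 HDC UMIs. The part of doublets and of cells under the gate limits in these UMIs was not tested.

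**Figure D2:**
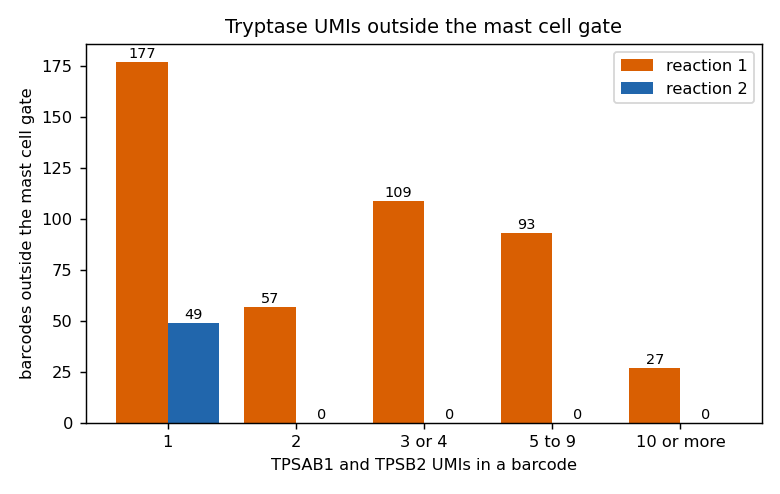
Number of barcodes outside the mast gate (vertical axis) by their TPSAB1 and TPSB2 UMIs (horizontal axis), in reaction 1 (orange) and reaction 2 (blue). Reaction 1 has 229 barcodes with 3 or more UMIs, and reaction 2 has 49 barcodes with 1 UMI and none above it.

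Most of the tryptase UMIs outside the gate in reaction 1 could not be given to a mouse. Of 1666, 1018 (61.1%) lay in hashtag doublets, 122 in barcodes without a hashtag and the rest, 31.6%, in hashtag singlets. Of those in singlets, maraviroc-treated mouse 3 of reaction 1 held 255 (48.5%), untreated mouse 1 held 101 and untreated mouse 4 held 80, and the other 4 mice held 10 to 44. Among other myeloid singlets, the 1152 cells of maraviroc-treated mouse 3 of reaction 1 held 142 tryptase UMIs, of which 123 lay in 17 barcodes, those of untreated mouse 4 held 31, and the cells of the other 12 mice of both reactions held 0 to 7. In lymphoid singlets the UMIs were spread more evenly over mice. That maraviroc-treated mouse held 37, and untreated mice 4, 1 and 3 held 23, 19 and 14. The other 3 mice of reaction 1 held 2 to 7. Within the former 4 mice these UMIs were also concentrated in few barcodes. Barcodes with 3 or more held 33 of the 37, 22 of the 23, 11 of the 19 and all 14. These were 7, 3, 3 and 3 barcodes, and the other 3 mice had none. Maraviroc-treated mouse 3 and untreated mouse 4 also had the most mast-gated singlets, 38 and 25. The results between classes are therefore also given without maraviroc-treated mouse 3 of reaction 1.

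Within the mast gate, levels varied with the other lineages in a barcode. Other myeloid markers summed to 2763 CPM in the mast-gated barcodes of reaction 1 and 964.2 CPM in those of reaction 2, with 11 and 12 of 12 markers detected, and lymphoid markers to 2155 and 495 CPM, with 9 and 10 of 10. The 55 and 51 mast-gated barcodes with under 3 UMIs of either list had CPA3 at 5653 CPM (5255 to 6074) and 6088 CPM (5809 to 6377), whereas the 257 and 42 others had 1999 and 2778 CPM. TPSAB1 was at 9146 and 6163 CPM in the former and 2515 and 2812 CPM in the latter. HPGDS was at 969.9 and 1516 CPM against 452.7 and 650 CPM. KIT differed less, at 538 and 841.5 CPM against 333.5 and 585.4 CPM. Hashtag singlets had CPA3 at 3916 and 5412 CPM, and hashtag doublets at 1786 and 2503 CPM.

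Across mast-gated barcodes, TPSAB1 and CPA3 varied together, with a Pearson r of 0.715 over 312 barcodes of reaction 1 and 0.818 over 93 barcodes of reaction 2. For TPSAB1 and HPGDS r was 0.477 and 0.756, and for TPSAB1 and GATA2 it was 0.313 and 0.273. These barcodes share a library and differ in depth and in doublets, so the values are a description. In all, 83.6% and 91.4% of mast-gated barcodes had a UMI of at least 5 of the 10 genes, against 0.568% and 0% of other myeloid barcodes, and 7 and 5 mast-gated barcodes had none.

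A few barcodes carried HDC, MS4A2, GATA2 and CPA3 without the granule serine proteases. CLC, the Charcot-Leyden crystal gene of basophils and eosinophils, had at least 2 UMIs in 7 barcodes, 1 in reaction 1 and 6 in reaction 2, of which 5 were mast-gated. Barcodes with 1 CLC UMI were not taken. These 7 held 0 UMIs of TPSAB1, TPSB2, CTSG, KIT, IL5RA and CMA1. They held 47 UMIs of HDC, 37 of MS4A2, 36 of GATA2, 21 of CPA3 and 3 of HPGDS, beside 273 of CLC and 25 of the eotaxin receptor CCR3. They were singled out after their values had been seen and are too few for a level per mouse. In all, 19 and 9 mast-gated barcodes had no tryptase UMI, and their GATA2 level was 48.0 CPM (17.6 to 105) and 226.2 CPM (152.6 to 323).

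Within mice, 9 of the 10 genes were higher in mast-gated than in other myeloid cells in every mouse tested. The comparison took the 7 mice with at least 10 mast-gated singlets, which were 4 untreated and 3 maraviroc-treated mice, and asked whether a gene's CPM differed between 2 classes of the same mouse. TPSAB1 was 5538 ± 922 CPM (SD, n = 7) in mast-gated cells and 4.08 ± 7.70 CPM in other myeloid cells. For CPA3, the mast-gated cells of these mice had 5089, 3705, 1651 and 4663 CPM in reaction 1 and 6034, 6070 and 5689 CPM in reaction 2. The lowest of these lies far above the 3.48 ± 6.26 CPM of other myeloid cells. KIT was 641.9 ± 279 CPM against 0.709 ± 1.18 CPM, HDC was 613.7 ± 431 CPM against 0.407 ± 0.428 CPM, and GATA2 was 420.1 ± 169 CPM against 0.467 ± 0.861 CPM. Each of the 9 reached the smallest p that 7 mice allow (two-sided exact sign-flip permutation test, p = 0.0156, Benjamini-Hochberg adjusted p = 0.0412 over all genes and class pairs), and 3.41% of the 16469 genes tested were called higher in mast-gated cells. A gene was tested if it had 20 UMIs over both classes together. HDC, GATA2 and IL5RA had fewer in the other myeloid cells of these mice and entered only through the mast-gated cells. Their direction was therefore settled by the filter, and their p is no independent support. IL5RA, at 59.4 ± 38.8 CPM against 0.281 ± 0.224 CPM, was higher in 6 of 7 mice and missed the threshold (exact permutation p = 0.0312, adjusted p = 0.0716). Adjusted over this class pair alone, or without maraviroc-treated mouse 3 of reaction 1, none of the 9 calls was kept, with an adjusted p of 0.0614 in the former case. In the latter case 6 mice remained, and the exact sign-flip test could not go below p = 0.03125. It then called 0.0% of 16047 genes. That loss was set by the number of mice and does not show a dependence on the values of that mouse.

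The same 9 genes were called against lymphoid cells (adjusted p = 0.0412, exact sign-flip permutation test, 7 mice), where 3.37% of the 15164 genes tested were called higher in mast-gated cells and 15.9% lower. MS4A2 passed the filter of 20 UMIs here only through the mast-gated cells, which settled its direction. With the adjustment over this pair alone the adjusted p was 0.081, so none of the 9 was called. Against plasmacytoid dendritic cells 4 mice could be used and the exact test could not go below p = 0.125, and 0.0% of 7271 genes were called. There TPSAB1, CPA3, HDC, MS4A2, KIT, IL5RA and GATA2 had no UMI in the dendritic cells of these mice.

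HPGDS, unlike the other 9 genes, was also frequent in other myeloid cells. It was at 89.6 CPM (87.3 to 92.0) in the other myeloid barcodes of reaction 1 and 60.4 CPM (58.7 to 62.2) in those of reaction 2, with a UMI in 24.7% and 30.3%. Lymphoid barcodes had 15.5 and 9.37 CPM, plasmacytoid dendritic barcodes 13.5 and 9.40 CPM, and tumor barcodes 17.2 CPM (9.82 to 27.9) in reaction 1 and 0 of 914738 UMIs in reaction 2, which allows up to 3.28 CPM. The order was therefore mast-gated, other myeloid, then the other classes, and the intervals of lymphoid, plasmacytoid dendritic and tumor barcodes overlapped in reaction 1. These sums include hashtag doublets. Plasmacytoid dendritic barcodes held 12 and 21 HPGDS UMIs, of which the singlets of the 9 mice with at least 10 such cells held 5. Other myeloid barcodes were split by at least 2 UMIs of a marker. Those with CLEC9A, a marker of conventional type 1 dendritic cells, had 24.5 and 8.28 CPM from 9 and 8 UMIs. Of the rest, those with CD1C, a marker of conventional type 2 dendritic cells, had 79.9 and 66.5 CPM. Of those then left, barcodes with the scavenger receptor CD163 had 105.9 and 73.8 CPM. Barcodes with under 2 UMIs of each had 72.2 and 27.2 CPM and were shallower, with a median of 2518 and 10200 UMIs against 5986 and 14650 for CD163.

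The higher level of HPGDS in other myeloid than in lymphoid cells held in all 14 mice. In the other myeloid cells of reaction 1 it was 59.5, 119, 87.2 and 66.8 CPM in untreated mice and 84.6, 93.7 and 93.7 CPM in maraviroc-treated mice. In reaction 2 it was 43.8, 51.8 and 114 CPM in untreated and 55.4, 91.7, 24.7 and 62.9 CPM in maraviroc-treated mice. Lymphoid cells ranged from 3.50 to 14.8 CPM over the 14 mice and overlapped with no other myeloid value. The means were 74.9 ± 27.2 CPM and 10.4 ± 3.24 CPM (SD, n = 14, two-sided exact sign-flip permutation test, p = 0.000122, adjusted p = 0.00138). Among the 20354 genes tested, 25.0% were called higher in other myeloid cells. In the 7 mice with enough mast-gated cells, HPGDS was 978 ± 473 CPM there and 85.8 ± 25.8 CPM in other myeloid cells. Against plasmacytoid dendritic cells, at 3.10 ± 5.33 CPM, other myeloid cells were higher in 9 of 9 mice (70.9 ± 18.8 CPM, exact permutation, adjusted p = 0.0166), where 29.9% of genes were called in that direction.

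**Figure D3:**
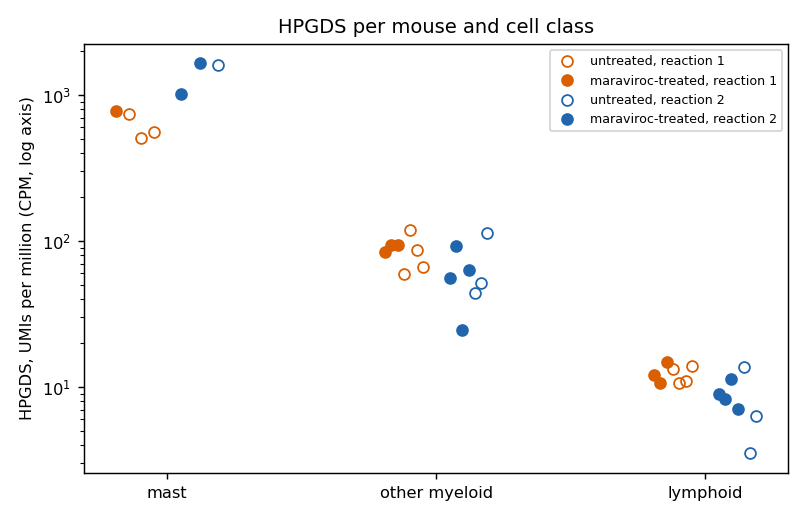
HPGDS in CPM (log axis) for each mouse in mast-gated, other myeloid and lymphoid cells, in untreated (open) and maraviroc-treated (filled) mice of reaction 1 (orange) and reaction 2 (blue). The 3 classes do not overlap, with 7 mice from 504.3 to 1643 CPM in mast-gated cells and 14 mice from 24.7 to 119 CPM in other myeloid cells.

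KIT, HDC, IL5RA and GATA2 were higher in lymphoid than in other myeloid cells, at levels far under those of mast-gated cells. KIT was 2.46 ± 2.53 CPM in lymphoid and 0.478 ± 0.848 CPM in other myeloid cells (higher in 12 of 14 mice, exact sign-flip permutation test, adjusted p = 0.00739). HDC was 1.62 ± 1.57 CPM against 0.278 ± 0.344 CPM (12 of 14, exact permutation, adjusted p = 0.0101), and IL5RA was 1.01 ± 0.609 CPM against 0.303 ± 0.188 CPM (12 of 14, exact permutation, adjusted p = 0.00442). GATA2, at 0.998 ± 0.967 CPM against 0.310 ± 0.614 CPM, was higher in 10 of 14 mice (exact permutation, adjusted p = 0.0412), and without maraviroc-treated mouse 3 of reaction 1 the adjusted p was 0.0637. Its lymphoid level was 0 to 0.627 CPM in the 7 untreated mice and 0.804 to 2.72 CPM in the 7 maraviroc-treated mice, from no more than 10 UMIs per mouse. The class difference of GATA2 thus lay mainly in maraviroc-treated mice. Treatments were not tested in lymphoid cells, and this split was seen afterwards. Between lymphoid and other myeloid cells 44.5% of the 20354 genes were called higher in lymphoid cells, so that 4 of 10 is near the background share. TPSAB1, TPSB2, CPA3, CTSG and MS4A2 were not called (adjusted p from 0.544 to 0.98, exact permutation).

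Lymphoid barcodes with at least 2 UMIs of CD3 or TRAC, genes of the T cell receptor complex, had KIT at 2.55 CPM in reaction 1 and 1.78 CPM in reaction 2. They held 62.9% and 96.1% of the lymphoid KIT UMIs and 46.15% and 100% of those of GATA2. These rest on few barcodes: the 70 and 51 KIT UMIs lay in 40 of 4837 and 17 of 3613, and the 26 GATA2 UMIs of each reaction in 19 and 14. KIT was at 0 in the 139 and 61 barcodes with at least 2 UMIs of KLRD1 or KLRF1 and no CD3 or TRAC UMI, which allows no more than a few CPM (upper bounds 6.87 and 7.86). Barcodes with CD3 or TRAC UMIs made up 80.2% and 90.5% of all lymphoid UMIs. They held 58.5% and 92.5% of the lymphoid HDC UMIs (31 of 53 and 37 of 40) and 83.3% and 93.3% of those of IL5RA (15 of 18 and 42 of 45), so in both reactions IL5RA, and in reaction 2 HDC, lay near their share of all UMIs, and HDC in reaction 1 lay under it. For each 100 TPSAB1 UMIs, lymphoid barcodes of reaction 2 had 510 KIT UMIs, where mast-gated barcodes had 17.0. The former value rests on 51 KIT and 10 TPSAB1 UMIs, and the source of these KIT UMIs was not tested. In lymphoid barcodes with a UMI of IL4, IL5, IL13 or PTGDR2, genes of type 2 lymphocytes, HPGDS was at 27.2 CPM (13.1 to 50.1) in reaction 1 and 34.8 CPM (20.2 to 55.6) in reaction 2, against 15.2 and 8.96 CPM in those without. The former were deeper, with a median of 8600 and 11100 UMIs against 2643 and 7200, and rested on 10 and 17 UMIs.

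Plasmacytoid dendritic cells had few UMIs of any of the 10 genes. In the 9 mice with at least 10 such cells, these cells had 83134 to 350048 UMIs per mouse. TPSAB1, CPA3, MS4A2, KIT, IL5RA and GATA2 were at 0 UMIs there, TPSB2, CTSG and HDC at 1 each, and HPGDS at 5. A pooled count of 0 allows up to 1.70 CPM, and in other myeloid cells TPSAB1 and CPA3 were above that level in 2 of the 9 mice, KIT in 1 and IL5RA in none. In lymphoid cells they were above it in 4, 4, 6 and 1 of the 9 mice. Of the 10 genes, HPGDS in other myeloid cells was the one that stood, in all 9 mice, above the level that 3 UMIs would give in the dendritic cells of the same mouse. For the other genes a lower level in plasmacytoid dendritic cells was therefore not detectable at this depth, and calls of them are not read as differences. Over all genes, 29.9% were called lower and 11.2% higher in plasmacytoid dendritic than in other myeloid cells, and 33.0% lower and 10.1% higher than in lymphoid cells.

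Of 45 further genes of mast cell pathways, 22 were highest in mast-gated barcodes in both reactions. All 4 transcription factors on the list were, MITF, LMO4, TAL1 and GATA1, with MITF at 318.4 and 417.4 CPM. Of the IgE receptor and signalling genes 4 of 8 were, among them the alpha chain FCER1A at 39.0 and 71.7 CPM and the kinase BTK at 174.3 and 301 CPM. Of the eicosanoid genes 5 of 8 were, including LTC4S at 371.7 and 409.2 CPM and ALOX5 at 169.5 and 275.2 CPM. Of the granule genes 3 of 5 were, with CMA1 at 327.1 and 428 CPM. The type 2 cytokine genes IL13 (20.7 and 75.3 CPM) and IL4 (9.55 and 5.88 CPM) were highest there. IL5 was at 0, which allows up to 2.39 and 3.53 CPM at 3 counts. Of the 22 genes, TPSD1 (0.796 and 2.35 CPM) and PTGDR2 (2.39 and 1.18 CPM) did not exceed these limits. HRH4 (3.98 and 4.70 CPM), and IL4 in reaction 2, were little above them, so the rank of these genes rests on few UMIs. CMA1, LTC4S, IL1RL1 and SLC18A2 were gate markers, so their levels in the class are set by the gate, and without them 18 of 41 were highest there.

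Tested within the 7 mice and without the 4 gate markers, 5 of 29 pathway genes were higher in mast-gated than in other myeloid cells (exact sign-flip permutation, adjusted p = 0.0412 for each), where 3.41% of all genes were: LMO4, LAT2, ALOX5AP, LAT and BTK. The leukotriene pathway protein gene ALOX5AP was 471.1 ± 94.0 CPM in mast-gated and 169.9 ± 52.9 CPM in other myeloid cells. By class sums ALOX5AP was highest in plasmacytoid dendritic barcodes of both reactions, above the 342.3 and 357.5 CPM of mast-gated barcodes. Called lower in mast-gated than in other myeloid cells were 10 genes, where 22.0% of all genes were. They include the kinases SYK and LYN, the histamine-degrading HNMT, the histamine receptor HRH2 and the protease inhibitor SERPINA1 (43.4 ± 46.6 CPM in mast-gated and 320 ± 47.4 CPM in other myeloid cells). For 3 of the 10, PTGDS, MPO and AZU1, the other myeloid level was under the 5.30 CPM that a count of 0 allows in the mast-gated cells, so a lower level there was not detectable. Against lymphoid cells 12 of 25 pathway genes were higher in mast-gated cells, among them MITF, PTGS1 and SRGN, where 3.37% of all genes were. GZMB and PTGDR were lower, where 15.9% were. PTGDR was at 1.77 CPM in mast-gated and 21.7 CPM in lymphoid cells. Its mast-gated value lay under the limit of 5.30 CPM and rests on few UMIs.

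The non-member genes with the highest ratio of mast-gated to other classed barcodes, by the lower of both reactions, were CMA1, SIGLEC8, AL731557.1, AL157895.1, CDK15, PLA2G2A, KRT1, STXBP6, LINC02829 and MS4A3. SIGLEC8, an inhibitory lectin of mast cells and eosinophils, was at 23.9 and 30.6 CPM in mast-gated barcodes and at 3 and 0 UMIs in the other classes. Among 6185 genes ranked in this way, CTSG was at rank 5, MS4A2 at 8, CPA3 at 9, TPSAB1 at 10, TPSB2 at 12, GATA2 at 15, HDC at 20, KIT at 23, IL5RA at 49 and HPGDS at 121. By Pearson r of log2(CPM + 1) over the 10 class sums of both reactions, KRT1 was most like TPSAB1 (r = 0.982) and LINC01140 most like CPA3 (0.986). PRG2 was most like CTSG (0.984) and GATA2 (0.996), GCSAML, a gate marker, most like HDC (0.996), and SPNS1 most like HPGDS (0.979). For genes rare outside the mast-gated barcodes, r reflects mainly the gap between the mast-gated sums and the rest. Genes found almost only in mast-gated barcodes would all have a high r. For TPSAB1 the next genes, LINC02284 and LINC01140, had r = 0.981, so the order is not resolved.

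No difference in the share of mast cells was found between treatments. Mast-gated cells were 0.502%, 1.18%, 0.589% and 1.25% of the kept cells in the untreated mice of reaction 1 and 0.208%, 0.237% and 1.74% in those of reaction 2. In maraviroc-treated mice they were 0.814%, 0.772% and 1.25% in reaction 1 and 1.01%, 1.71%, 0% and 0.744% in reaction 2. The mouse at 0 had 831 kept cells, which allows a share of up to 0.443% (exact binomial). The groups overlapped, from 0.208% to 1.74% and from 0% to 1.71%, and the means were 0.815% ± 0.581 and 0.900% ± 0.525 (SD, n = 7 each), a difference of 0.0854 percentage points (two-sided exact permutation test, p = 0.766). Within reaction 1 the difference was 0.0668 points (exact permutation, p = 0.857) and within reaction 2 it was 0.137 points (p = 0.943).

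**Figure D4:**
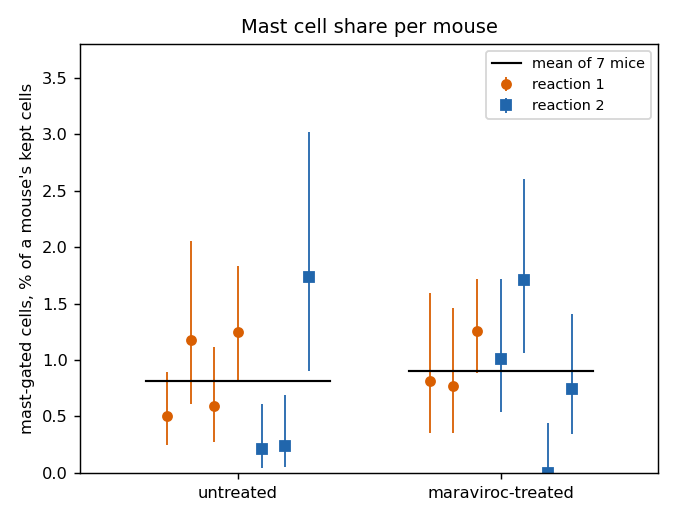
Mast-gated cells as percent of the kept cells of each mouse, with exact binomial 95% intervals for counting error, in reaction 1 (orange circles) and reaction 2 (blue squares). Lines are the means of 7 mice, 0.815% and 0.900%, and the mice of both treatments overlap.

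In UMIs summed over all kept cells of a mouse, none of the genes differed between treatments beyond the spread of mice. TPSAB1 ranged from 3.34 to 64.9 CPM in untreated mice (median 33.3) and from 0.221 to 74.5 CPM in maraviroc-treated mice (median 41.5). The log2 fold change of maraviroc-treated over untreated mice was 0.37 (SE 0.65) for TPSAB1, 0.76 (SE 0.63) for CPA3, 0.85 (SE 0.53) for HDC, 0.92 (SE 0.56) for GATA2 and -0.22 (SE 0.31) for HPGDS. Adjusted p ran from 0.982 to 0.9998 over the 9 genes tested (edgeR quasi-likelihood test), and IL5RA was below the low-count filter. Of 15059 genes, 0.0% were called at an adjusted p under 0.05 by edgeR, where DESeq2 called 0 too. At an unadjusted p under 0.05, edgeR counted 538 genes, 2.11% of those tested as higher and 1.47% as lower in maraviroc-treated mice, and none of the 9 was among them, while DESeq2 counted 740. A share of mast cells and an amount of mRNA per cell cannot be told apart in such sums. In other myeloid cells only HPGDS passed the filter, and its log2 fold change was -0.10 (SE 0.27, adjusted p = 0.9995), with 0.0% of 12890 genes called by edgeR or DESeq2. At an unadjusted p under 0.05 edgeR counted 403 (1.74% higher, 1.39% lower) and DESeq2 509.

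Within mast-gated cells, 4 untreated and 3 maraviroc-treated mice could be compared. Of these cells, 4 of 11, 5 of 12, 11 of 25 and 8 of 12 in untreated mice were free of other lineages. In maraviroc-treated mice 10 of 38, 10 of 13 and 17 of 21 were. The part of this mixture in the values per mouse was not tested. CPA3 was 5089, 3705, 1651 and 6034 CPM in untreated and 4663, 6070 and 5689 CPM in maraviroc-treated mice, so the groups overlapped. HDC was 261, 131.6, 372.4 and 938.1 CPM in untreated and 343.9, 1093 and 1156 CPM in maraviroc-treated mice. The values above 900 CPM all came from reaction 2, which gave 1 of the 4 untreated and 2 of the 3 maraviroc-treated mice. The log2 fold change of HDC was 0.90 (SE 0.58), and 0.29 (SE 0.34) with reaction as a term. GATA2 was 149 to 545.1 CPM against 487.9 to 614.8 CPM, with a log2 fold change of 0.68 (SE 0.39), and 0.52 (SE 0.35) with reaction as a term. TPSAB1 differed by -0.05 (SE 0.20) and HPGDS by 0.36 (SE 0.42). Adjusted p was 0.999 for each of the 9 genes tested (edgeR), and 0.0% of 1754 genes were called, with 46 at an unadjusted p under 0.05 (1.43% higher, 1.2% lower, and none of the 9 genes). DESeq2 also called 0, with 102 at an unadjusted p under 0.05. None of the pathway genes tested, 30 in all kept cells, 24 in other myeloid and 17 in mast-gated cells, was called. The lowest unadjusted p among them was that of PTGDS, a prostaglandin D synthase, in all kept cells, at 8.02 ± 6.37 CPM in untreated and 44.7 ± 24.6 CPM in maraviroc-treated mice (SD, n = 7 each), with a log2 fold change of 2.45 (SE 0.54, edgeR, unadjusted p = 0.000345, adjusted p = 0.982). PTGDS was highest in plasmacytoid dendritic barcodes, at 1396 and 1617 CPM, and plasmacytoid dendritic cells were 0.827% ± 0.634 of what was kept from untreated mice and 1.27% ± 0.57 of that from maraviroc-treated mice. The part of these cells in that value was not tested.

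**Figure D5:**
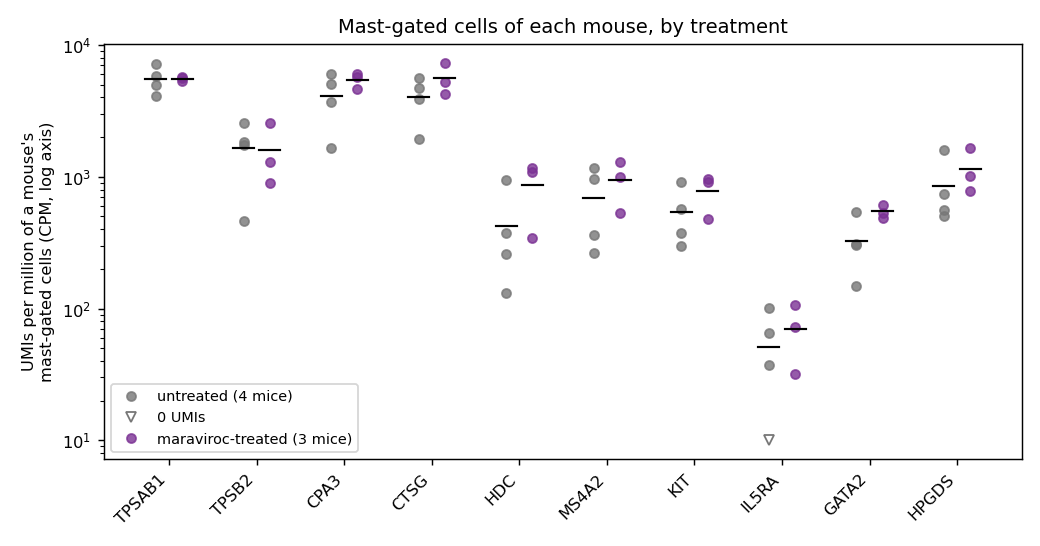
CPM (log axis) of each gene in the mast-gated cells of 4 untreated (grey) and 3 maraviroc-treated (purple) mice, with lines at the means. The open triangle is an untreated mouse with 0 IL5RA UMIs, drawn at 10 for display. The groups overlap for all genes, and for TPSAB1 the means are 5526 and 5553 CPM.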

How the data were processed

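The authors processed the reads with Cell Ranger 9.0.1 against GRCh38 and deposited counts, that is raw UMI counts per gene and per hashtag, for 2 reactions without normalization. Cells were assigned to mice with HTODemux (Seurat 5.3.0, R 4.3.3, positive quantile 0.99) on centered log-ratio values, as in the methods of the study. The 10 genes, the marker and pathway lists and the gates were chosen with earlier results of these data known, and gate thresholds were set after the data had been seen. Sums per class were scaled to CPM in Python 3.11.15, with exact Poisson and binomial 95% intervals for counting error. Doublets were marked by hashtags only and removed from every value per mouse. Classes were compared within mice by a two-sided exact sign-flip permutation test on CPM, for genes with at least 20 UMIs, adjusted by Benjamini-Hochberg over all genes and pairs of classes. The design had set the adjustment over the listed genes only, which was not used. Treatments were compared by edgeR 4.0.16 (TMM, filterByExpr, quasi-likelihood test) on UMIs summed per mouse, with DESeq2 1.42.0 as an alternative. The SE given with an edgeR log2 fold change is its absolute value divided by the square root of the F statistic of the test. Mast cell shares were compared by an exact permutation test over mice. The genes named were all 10, the fixed pathway list, and those most like them by fold or Pearson r. P-values measure the spread between mice. Tests were checked on simulated data. Clustering was not used here, and no human sequence or coordinate was printed.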

Additional observations from a re-analysis of the deposited data

Results flagged for a closer look

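Mice were picked out within each treatment group of 7. A mouse was picked where its gap to the nearest other mouse was large for the range of the group. The groups share mice and many of their values rest on few UMIs, so no rate by chance is given for this rule. The rule was met in 20 of 72 groups of gene and cell class. Most concerned 2 mice of reaction 1, those with the most mast-gated singlets. In the other myeloid cells of maraviroc-treated mouse 3 of reaction 1, TPSAB1 was 21.2 CPM, TPSB2 5.69, CPA3 17.4, CTSG 26.0, HDC 1.33, MS4A2 3.23, KIT 3.23 and GATA2 2.28 CPM, where no other maraviroc-treated mouse exceeded 0.625 CPM in any of these. In its lymphoid cells CPA3 was 13.0, CTSG 8.77 and HDC 6.35 CPM.

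In the other myeloid cells of untreated mouse 4 of reaction 1, TPSAB1 was 4.26, TPSB2 1.02, CTSG 13.3, MS4A2 2.73 and KIT 1.19 CPM, and in its lymphoid cells KIT was 6.78 CPM. GATA2 was 0.881 CPM in the other myeloid cells of untreated mouse 2 of reaction 1. In all kept cells of untreated mouse 3 of reaction 2, which had the highest mast cell share of any mouse (1.74%), HDC was 8.64 and MS4A2 10.7 CPM.

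Barcodes above 6000 detected genes were outside the comparisons. Of these, 9 of 312 in reaction 1 and 25 of 1301 in reaction 2 passed the mast gate.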

How the results depend on the processing

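All 10 genes stayed highest in mast-gated barcodes in both reactions with doubled gate UMIs, with over 1000 genes, with hashtag singlets and with barcodes free of other lineages, and the gates on tryptase (8 genes) or on CPA3, HDC and MS4A2 (2 tryptases) left that unchanged. The levels in mast-gated barcodes moved by more than counting error in 84 cases and stayed within it in 36. The calls between classes were less stable. Against 34 calls over all pairs, the count was 4 with doubled gate UMIs, 8 with over 1000 genes, 9 without maraviroc-treated mouse 3 of reaction 1, 16 with the adjustment within each pair, and 0 in each reaction by itself. Counts for mast against other myeloid and mast against lymphoid cells went from 9 to 0 under each of these, where 0.0% of all genes were called. That for other myeloid against lymphoid cells went from 5 to 0 in each reaction by itself, again with 0.0% of all genes called. Under the settings that kept calls there, 23.4% to 26.2% of all genes were called higher in other myeloid and 41.26% to 46.85% higher in lymphoid cells. Plasmacytoid dendritic against other myeloid cells went from 5 to 0, 3 and 2 (doubled UMIs, over 1000 genes, without that mouse), and against lymphoid cells from 6 to 0, 1 and 3, with 0 in each reaction. The share of all genes called in that direction went from 29.9% to 0.0%, 22.7% and 23.5%, and from 33.0% to 0.0%, 22.7% and 23.3%. In plasmacytoid dendritic cells these calls rest on 0 to 5 UMIs of a gene, and those of genes at 0 UMIs could not have had the other direction. Apart from HPGDS against other myeloid cells, they are not read as differences. Fewer mice raise the smallest p that a sign-flip test can give. The other myeloid minus lymphoid difference turned positive for TPSAB1 with doubled gate UMIs (0.354 CPM) and with over 1000 genes (0.795 CPM), for TPSB2 with over 1000 genes (0.123 CPM), and for CPA3 with over 1000 genes (0.540 CPM) and in reaction 2 (0.120 CPM). For CTSG it turned negative without maraviroc-treated mouse 3 of reaction 1 (-0.467 CPM). The cause was not tested.

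No gene was called between treatments in all kept, other myeloid or mast-gated cells under any setting run, including reaction as a term. Each reaction by itself was run for all kept and other myeloid cells, but not for mast-gated cells. Lymphoid cells were not compared between treatments. The log2 fold change of TPSB2 in all kept cells turned negative with DESeq2 (-0.0413), in reaction 1 (-0.143) and at hashtag quantile 0.95 (-0.0263), and ranged from -0.358 to 0.235 with each mouse left out, negative without untreated mouse 1 (-0.0201) or 2 (-0.122) or maraviroc-treated mouse 2 (-0.0634) or 3 (-0.249) of reaction 1 and without untreated mouse 1 (-0.20) or 2 (-0.193) or maraviroc-treated mouse 2 of reaction 2. For HPGDS in other myeloid cells it was 0.0841 in reaction 1, and -0.206 to 0.0468 with each mouse left out, positive without untreated mouse 2 of reaction 1 (0.0398), untreated mouse 3 of reaction 2 (0.00080) or maraviroc-treated mouse 3 of reaction 2. In mast-gated cells DESeq2 gave 0.0503 for TPSAB1 and 0.0265 for TPSB2, and with each mouse left out the ranges were -0.152 to 0.117 and -0.583 to 0.245, with positive values without untreated mouse 1 of reaction 1 (0.0134 and 0.200), maraviroc-treated mouse 3 of reaction 1 (TPSB2, 0.0545), untreated mouse 3 of reaction 2 (TPSAB1) or maraviroc-treated mouse 1 of reaction 2 (TPSAB1, 0.0145). The difference in mast cell share ranged from -0.0496 to 0.239 percentage points with each mouse left out, and was also negative without untreated mouse 1 (-0.0157) or 2 (-0.0109) of reaction 2. Over lymphoid, tumor and shallow barcodes together, both tryptases were at 9.40 CPM in reaction 1 and 0.564 CPM in reaction 2. Taken separately, they were at 8.17 CPM in lymphoid barcodes of reaction 1 and 0 in tumor barcodes of both reactions. In barcodes at or under 600 genes they were at 58.2 and 2.13 CPM. These shallow barcodes were not gated by class, so mast cells among them were not removed. In reaction 1 their 42 tryptase UMIs lay in 4 barcodes. A comparison of mice with at least 20 mast-gated cells was not run, because 1 untreated and 2 maraviroc-treated mice had them. The alternatives without maraviroc-treated mouse 3, within each pair of classes, with barcodes free of other lineages, and DESeq2 and mice left out for mast-gated cells were chosen after seeing the data. No paired analysis was possible because the treatments were given to different mice and the hashtags carry no pairing between them.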
